A study of Mus musculus with 4 samples.

Results

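The myosins of muscle were followed across 4 expression arrays of mouse skeletal muscle RNA. They are 5 heavy chains (Myh1, Myh4, Myh7, Myh3 and Myh8) and 5 light chains (Myl1, Mylpf, Myl2, Myl3 and Myl4). Every probe set whose single gene symbol in the platform's gene table was one of these 10 genes was taken, which gave 10 of the 8251 genes named on the array and 15 of its 12422 probe sets that are not controls. Of the genes, 5 had 2 probe sets and 5 had 1. The array titles code 2 samples as J (replicates 1a and 1c) and 2 as NJ (replicates 1a and 1d), all at 0 h and all with the code Ctr. The codes are not spelled out, and strain, genotype, age, sex and the muscle taken are not stated in the labels. The series title names the neuromuscular junction, and the design sets J against NJ. The labels do not tie the arrays to different animals, so p-values measure the spread between these samples, which may be technical.

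Myosin II is the motor of the thick filament. Each molecule pairs 2 heavy chains, which carry the ATP-splitting heads, with essential and regulatory light chains that stiffen the lever arm and tune it. Adult fibres differ in the isoforms they hold: fast fibres use the heavy chains IIx (Myh1) and IIb (Myh4) with the light chains Myl1 and Mylpf, and slow fibres use Myh7 with Myl2 and Myl3. Embryonic (Myh3) and perinatal (Myh8) heavy chains and the embryonic and atrial light chain Myl4 belong to developing muscle and return in regenerating fibres. The labels name skeletal muscle, and Acta1, the skeletal actin, had signals of 207533 and 32990 for J, and 123803 and 87672 for NJ. In such bulk RNA, fewer fibres of a kind and less transcript per fibre cannot be told apart.

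Myh3, Myh2, Myh1, Myh4, Myh8 and Myh13 follow one another in that order on chromosome 11 among the myosin heavy chain genes, and Myl4 lies elsewhere on chromosome 11. The start regions of 3 of these neighbours are shown because their probe sets gave different patterns over the arrays, and that of Myl4 because it was the member with both J arrays above both NJ arrays at each of its probe sets. Each is 300 bases of RefSeq sequence in the build GRCm38.p6, from 250 before to 50 after the gene's start, all on the plus strand: Myh1 at chr11:67199852-67200151, Myh4 at chr11:67237562-67237861, Myh8 at chr11:67276874-67277173 and Myl4 at chr11:104550413-104550712. Capitals mark the runs of at least 12 bases that the windows of Myh1, Myh4 and Myh8 share.
Myh1: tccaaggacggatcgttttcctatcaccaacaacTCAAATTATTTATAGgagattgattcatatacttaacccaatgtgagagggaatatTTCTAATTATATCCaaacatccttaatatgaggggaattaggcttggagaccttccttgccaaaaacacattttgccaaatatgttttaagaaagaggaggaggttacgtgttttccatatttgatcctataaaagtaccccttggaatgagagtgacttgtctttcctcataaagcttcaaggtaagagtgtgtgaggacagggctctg
Myh4: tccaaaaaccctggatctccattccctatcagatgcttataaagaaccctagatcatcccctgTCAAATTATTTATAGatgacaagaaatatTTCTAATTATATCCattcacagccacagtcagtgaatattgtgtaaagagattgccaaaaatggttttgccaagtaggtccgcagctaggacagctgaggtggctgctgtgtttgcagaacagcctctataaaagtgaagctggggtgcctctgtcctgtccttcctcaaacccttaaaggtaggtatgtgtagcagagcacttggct
Myh8: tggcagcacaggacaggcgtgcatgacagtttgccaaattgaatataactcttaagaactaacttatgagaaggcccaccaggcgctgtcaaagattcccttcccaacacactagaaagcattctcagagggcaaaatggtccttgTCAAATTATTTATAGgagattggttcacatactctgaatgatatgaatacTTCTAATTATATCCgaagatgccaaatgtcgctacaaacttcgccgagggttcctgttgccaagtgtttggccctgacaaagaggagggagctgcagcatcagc
Myl4: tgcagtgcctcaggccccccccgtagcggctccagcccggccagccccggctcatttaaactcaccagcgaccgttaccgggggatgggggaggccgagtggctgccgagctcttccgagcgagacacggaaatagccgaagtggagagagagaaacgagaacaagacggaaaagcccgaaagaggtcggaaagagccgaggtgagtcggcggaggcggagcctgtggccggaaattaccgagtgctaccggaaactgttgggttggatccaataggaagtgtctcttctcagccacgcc

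The first shared run, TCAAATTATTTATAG, begins 216 bases before the start of Myh1, 187 before that of Myh4 and 104 before that of Myh8. Searched on both strands, it was found in 3 of 32851 windows of the same length (0.00913%), those of these 3 genes. The second, TTCTAATTATATCC, begins 160, 158 and 54 bases before the starts of Myh1, Myh4 and Myh8, and was found in 4 windows (0.0122%), the fourth being that of the neighbour Myh2. The E-box CANNTG, the core motif of myogenic factors, was in 10 of the 12 member windows, against 72.3% of all windows, and its form CAGCTG in 5 of 12, against 16.3%. The letters TATAAA were in 6 of 12, against 13.6%. CAGCTG is a form of CANNTG, so these counts overlap. The first shared run ends in letters that read TATAAA on the minus strand, so that count overlaps the run, and it is the only TATAAA in the window of Myh8. None of the 3 short motifs was in the window of Myl4. A match is a description of letters and not of a bound site.

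The fast isoforms Myh4, Myh1 and Myl1 had their lowest signals on J 1c at their brightest probe sets. Signals here are the deposited intensities, which have been scaled to a common trimmed mean on each array and have no unit. Myh4, the IIb heavy chain, had signals at probe set 98488_at of 231943 on J 1a and 18239 on J 1c, against 184184 on NJ 1a and 113894 on NJ 1d. J 1c was thus 6.24-fold below NJ 1d while J 1a was 1.26-fold above NJ 1a, and the groups overlapped. Myh1, the IIx heavy chain, had signals of 110067 and 35998 for J, and 89631 and 116910.3 for NJ. Myl1, the essential light chain of fast fibres, had 215918 and 26034 for J, and 134485 and 98041 for NJ. On J 1c the signal was 3.25-fold below NJ 1d for Myh1 and 3.77-fold below for Myl1.

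**Figure D1:**
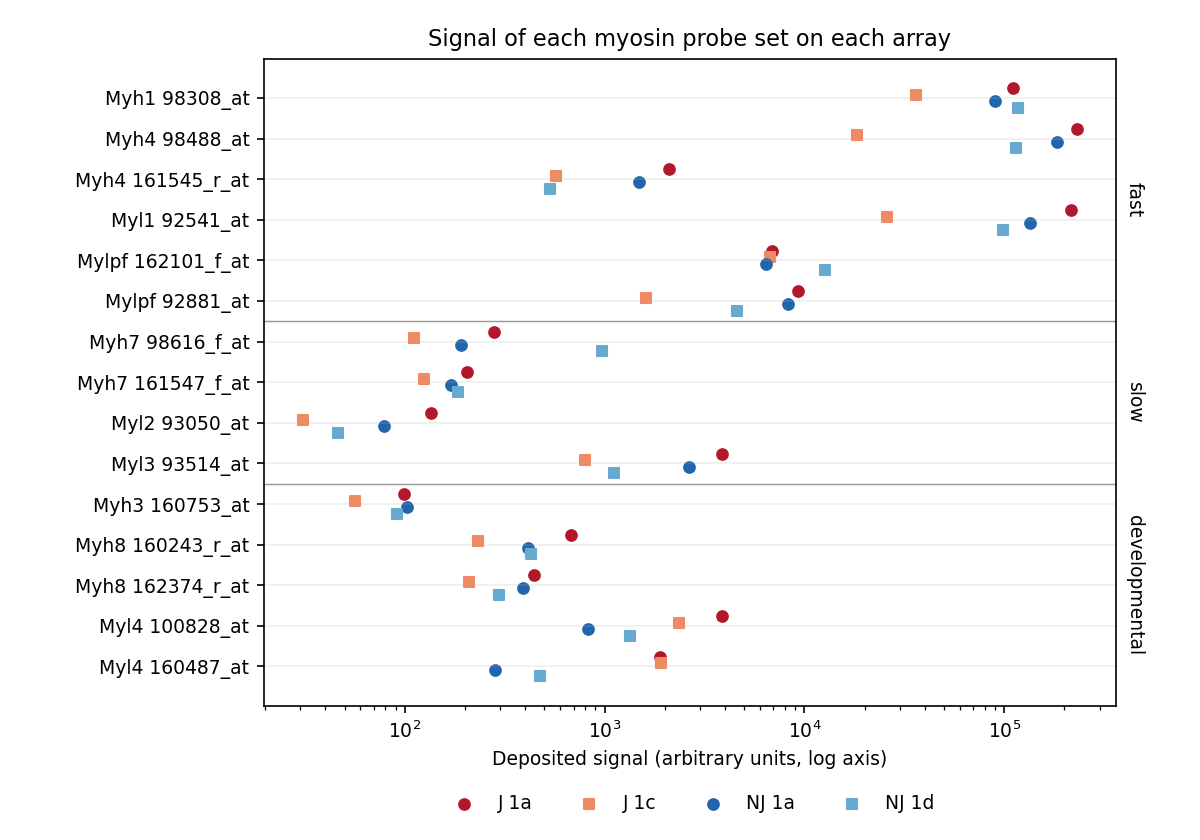
Deposited signal (horizontal log axis, arbitrary units) of the 15 myosin probe sets on J 1a, J 1c, NJ 1a and NJ 1d, 1 point per array, grouped into fast, slow and developmental isoforms. J 1c holds the lowest point of 11 probe sets, while both probe sets of Myl4 have both J points above both NJ points.

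Mylpf, the regulatory light chain of fast fibres, was measured by a pair of probe sets that disagreed. At 92881_at its signals were 9257 and 1608 for J, and 8244 and 4580.3 for NJ, with J 1c lowest. At 162101_f_at they were 6890.1 and 6763 for J, and 6418 and 12749.6 for NJ, so that J 1c was close to both 1a arrays and NJ 1d stood highest. The log2 ratio of 162101_f_at to 92881_at moved by 2.48 over the arrays on the deposited scale. The other probe set of Myh4, 161545_r_at, had 2100.1 and 569 for J, and 1483 and 533 for NJ, where J 1c lay 1.07-fold above NJ 1d rather than below it. A name ending in _f_at marks probes shared within a gene family and _r_at a set chosen under relaxed rules. Heavy chain genes are alike in sequence, and the part of cross-hybridisation in these signals was not tested.

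The slow isoforms did not separate J from NJ. Myl3, the essential light chain of slow and ventricular muscle, had signals of 3890.3 and 802 for J, and 2643 and 1111 for NJ, both 1a arrays being the higher ones. Myh7, the slow and beta-cardiac heavy chain, had 278 and 111.5 for J, and 191 and 974 for NJ at 98616_f_at. The value on NJ 1d was 8.73-fold that on J 1c. At its other probe set, 161547_f_at, the signals were 204 and 125.5 for J, and 170.5 and 185.3 for NJ, without a high value on NJ 1d. Myl2, the regulatory light chain of slow and ventricular muscle, was dim everywhere, at 134.9 and 30.9 for J, and 78.9 and 46.6 for NJ, and did not pass the filter on low values.

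Of the developmental isoforms, Myl4 had separate groups in deposited signal and the heavy chains had overlapping ones. Myl4 had signals of 3867 and 2356 for J, and 822 and 1341 for NJ at 100828_at. At its other probe set, 160487_at, they were 1893 and 1915 for J, and 283 and 475 for NJ. Both probe sets had both J arrays above both NJ arrays, by 4.70-fold and 6.69-fold within the 1a pair and by 1.76-fold and 4.03-fold for J 1c over NJ 1d. Myh8 had signals of 683 and 232 for J, and 414 and 431 for NJ at 160243_r_at, and 443 and 211 against 390.1 and 295.5 at 162374_r_at. Its highest value was on J 1a and its lowest on J 1c at both. Myh3 had 99.4 and 56.7 for J, and 103 and 91.3 for NJ and was too dim to test. After the normalisation described next, both its J values (6.82 and 6.61) lay below both its NJ values (6.90 and 7.19), with no test. The share of all probe sets with this order was not counted, and 13.6% of those tested had the opposite order.

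Before the test, signals were taken as log2(signal + 32) and quantile normalised, which gives every array the same distribution, so that a probe set's value on an array depends only on its rank there. Probe sets with a mean above the 25th percentile were tested with limma, with Benjamini-Hochberg adjustment over all 9317 of them. Of the members, 13 probe sets of 8 genes passed the filter. Differences below are J minus NJ on that log2 scale with the standard error of the fit, over 2 arrays per group. The scale understates changes of dim probe sets. None of the 13 passed at an adjusted p under 0.05 in limma, against 0% of all tested probe sets, and 2 of them, both of Myl4, had an unadjusted p under 0.05, against 2.14% of all. With 2 arrays per group, the smallest two-sided p of an exact permutation test is 0.333.

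Myl4 differed by 2.28 ± 0.56, or 4.86-fold, at 160487_at (95% interval 1.03 to 3.53; limma, unadjusted p = 0.0024, adjusted p = 0.999). At 100828_at it differed by 1.51 ± 0.48, or 2.85-fold (0.44 to 2.58; limma, unadjusted p = 0.011, adjusted p = 0.999). They ranked 7 and 26 of 9317 by p. The adjusted values did not pass, and both J values above both NJ values were also found for 13.6% of all tested probe sets. With each array left out the difference ran from 1.83 to 2.69 and from 1.11 to 1.93. Both differences were larger within the 1a pair (2.80 and 2.33) than for J 1c minus NJ 1d (1.76 and 0.69).

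Values of both 1a arrays were deposited with full digits and those of J 1c and NJ 1d with 1 decimal. Each format thus occurs once in J and once in NJ, and the labels do not say what it stands for. With a term for number format in limma, the adjusted p was 0.068 for 160487_at and 0.19 for 100828_at, against 8 calls among all probe sets (0.0859%), none of them a myosin. At an unadjusted p under 0.05 the term gave 3 of the 13 member probe sets, against 5.96% of all. That fit has 1 residual degree of freedom. Myh4 98488_at had an unadjusted p of 0.025 with the term (limma, adjusted p = 0.71), from a difference of -0.13 within the 1a pair and -2.14 for J 1c minus NJ 1d.

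**Figure D2:**
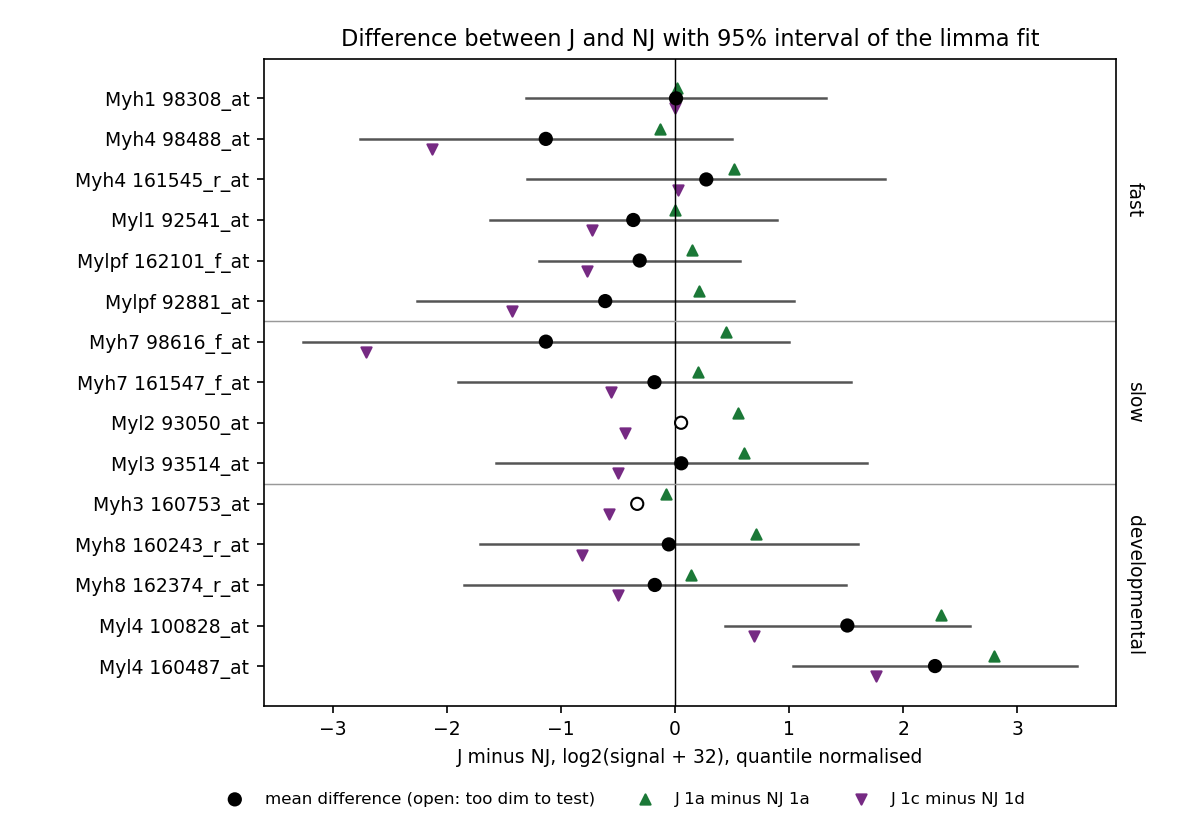
Difference J minus NJ (horizontal axis, quantile normalised log2(signal + 32)) of the 15 probe sets: circles are means over 2 arrays per group, lines the 95% interval of limma for the 13 tested, and triangles the differences J 1a minus NJ 1a and J 1c minus NJ 1d. The intervals of both Myl4 probe sets lie above 0 and the other 11 span 0.

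The other 11 probe sets, of 7 genes, had unadjusted p between 0.15 and 0.99 in limma, and all their groups overlapped. The fast heavy chain Myh4 differed by -1.13 ± 0.72 at 98488_at (95% interval -2.76 to 0.50) and by 0.27 ± 0.70 at 161545_r_at (-1.30 to 1.85). Without J 1c the first of these was -0.03. Myh1 differed by 0.0089 ± 0.58 (-1.30 to 1.32), but by -0.70 on the deposited scale. Among all 12488 probe sets it held rank 2 on J 1c and on NJ 1d, which sets that normalised difference to 0 although the signals were 3.25-fold apart. Myl1 held rank 5 on both 1a arrays, with a normalised difference of 0 there against a signal ratio of 1.61. Myl1 differed by -0.37 ± 0.56 over all arrays, and by 0.02 without J 1c. Mylpf differed by -0.31 ± 0.39 at 162101_f_at and by -0.61 ± 0.74 at 92881_at, which was 0.73 without J 1c.

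Among slow and developmental isoforms other than Myl4, Myh7 differed by -1.13 ± 0.95 at 98616_f_at (95% interval -3.26 to 1.0001) and by -0.18 ± 0.77 at 161547_f_at. Without NJ 1d these were 0.06 and 0.08. Myl3 differed by 0.06 ± 0.72 (-1.57 to 1.68), and by -1.13 without J 1a. Myh8 differed by -0.05 ± 0.74 at 160243_r_at, which was 0.54 without J 1c, and by -0.18 ± 0.75 at 162374_r_at. The sign of 10 of these 11 probe sets turned when 1 array was left out. Besides the values above, Myh1 was -0.42 without J 1c and -0.35 without NJ 1a, and leaving out J 1a or NJ 1d gave -0.65 or -0.38 for Myh4 161545_r_at. Mylpf 162101_f_at was 0.07 without NJ 1d and Myl3 was -0.55 without NJ 1d. Myh8 160243_r_at was 0.09 without NJ 1d, and 162374_r_at was 0.15 without J 1c. The 95% intervals of the 13 probe sets were 1.76 to 4.27 log2 units wide.

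By class, with the brightest tested probe set for each gene, the median difference was -0.34 for 4 fast genes (1 higher in J, 3 lower) and -0.54 for 2 slow genes (1 higher, 1 lower). It was 0.73 for 2 developmental genes (1 higher, 1 lower), against a median of -0.01 over all 6774 genes tested. The slow median was 0.25 without J 1c, and with no filter it was 0.05, when Myl2 joined it. The developmental median was -0.0545 with no filter, when Myh3 joined it. Within each array, the mean of the developmental genes minus that of the fast genes, each centred on its mean over the 4 arrays, was 0.81 on J 1a and 0.37 on J 1c against -0.70 on NJ 1a and -0.48 on NJ 1d. On the deposited scale the same values were 0.21 and 1.23 against -0.87 and -0.56. Both J arrays lay above both NJ arrays on either scale, with Myl4 as 1 of the 2 developmental genes. On J 1c the deposited value was made up of -1.40 for the fast class and -0.18 for the developmental class, and Myh4, Myl1 and Myh1 are among the brightest probe sets, which had compressed signals on that array as given below. For the other, Myh8, the centred log2 ratio to Myh4 was -0.57 and 1.66 in J against -0.92 and -0.17 in NJ on the deposited scale, where the groups overlapped. After normalisation it was 0.05 and 1.03 against -0.79 and -0.29, where they did not.

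The ratio of Myl4 to Myl1, the embryonic against the fast essential light chain, was on the deposited scale -0.12 on J 1a and 2.23 on J 1c against -1.62 on NJ 1a and -0.48 on NJ 1d, as log2 values centred on their mean. After normalisation it was 0.98 and 0.89 against -1.35 and -0.53. Myl1 is among the brightest probe sets, whose signals were compressed on J 1c, and Myl4 is not, so the deposited value on J 1c includes that compression. Against the slow essential light chain Myl3, which is not among them, the groups overlapped. The ratio of Myl4 to Myl3 was -0.04 and 1.49 in J against -1.68 and 0.23 in NJ on the deposited scale, and after normalisation 1.46 on J 1c, against -1.73 and 0.27 in NJ, with J 1a between the NJ values. Such a ratio shows unequal change and not which gene changed. As classes, developmental minus slow was 0.34 and 0.94 in J against -0.58 and -0.69 in NJ on the deposited scale. After normalisation it was 0.38 and 0.89 against -0.61 and -0.65. Both J arrays lay above both NJ arrays on either scale, with Myl4 as 1 of the 2 developmental genes. Slow against fast gave no such order. The contrast of these classes was -0.13 and 0.29 in J against -0.29 and 0.13 in NJ on the deposited scale, and 0.43 and -0.52 against -0.09 and 0.18 after normalisation. The ratio of Myh4 to Myh1, IIb against IIx, was 0.80 on J 1a and 0.76 on NJ 1a but -1.25 on J 1c and -0.31 on NJ 1d on the deposited scale. Both 1a arrays thus lay above J 1c and NJ 1d, while J and NJ overlapped.

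**Figure D3:**
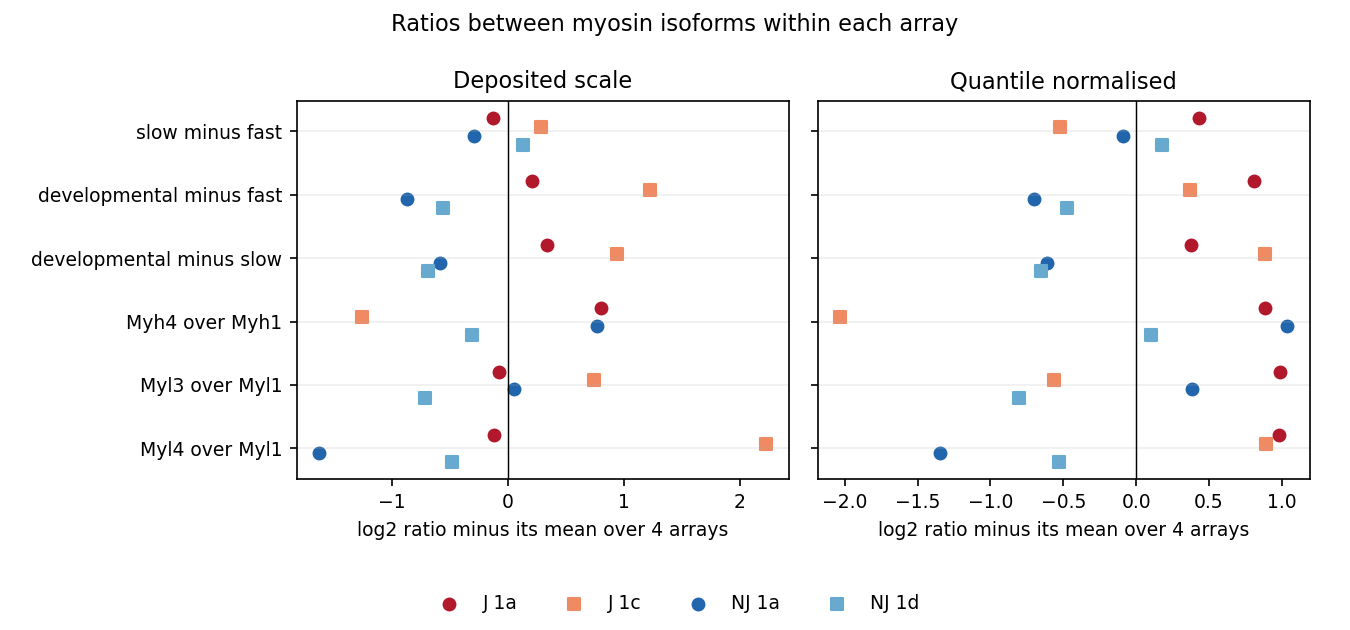
Log2 ratios within each array between isoform classes and between pairs of genes, each minus its mean over the 4 arrays (horizontal axis), on the deposited scale (left) and after quantile normalisation (right), 1 point per array. Developmental minus fast, developmental minus slow and Myl4 over Myl1 have both J points to the right of both NJ points in both panels, and slow minus fast has overlapping groups.

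Array J 1c had compressed signals at the top, with a highest signal of 41086 against 125534 to 231943 on the other arrays. Among the 20 brightest probe sets other than the myosins, ranked on the other 3 arrays, the median shift of J 1c against those arrays was -2.04 on the log2 scale (quartiles -3.13 and -1.65). It was -0.01 for probe sets ranked 201 to 500 and 0.01 for those ranked 2001 to 5000. Ranked in the same way on the remaining arrays, the 20 brightest had median shifts of 0.94 on J 1a, 0.60 on NJ 1a and 0.29 on NJ 1d. Beside these, Myl1 shifted by -2.44 and lay within the quartiles of its brightness range, Myh1 by -1.54, above them, and Myh4 98488_at by -3.21, below them.

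Several myosins below the top were also low on J 1c, where the medians of the other probe sets were near 0. Mylpf 92881_at shifted by -2.11 where the median of its range was -0.01 (quartiles -0.32 and 0.34), while Mylpf 162101_f_at, in the same range, shifted by -0.29 and lay within them. Myl3 shifted by -1.46 where the median was 0.04, the dim Myh7 98616_f_at by -1.52 where it was -0.18, and Myh8 160243_r_at by -1.001 where it was 0.01. In all, 8 of the 15 probe sets lay below the quartiles of their range, 4 within and 3 above. The 3 above were Myh1 and both probe sets of Myl4, at 0.52 and 1.53. The lowest of the 4 signals was on J 1c for 11 of 15 myosin probe sets, and for 9 of the 13 tested against 23% of all tested probe sets. After normalisation it was again 9 of 13, against 21.3%. In the 1a pair, the deposited signal on J 1a was above that on NJ 1a for 13 of the 13 tested, against 50.8% of all tested. After normalisation this held for 11 of 13, against 49.6%. The summed signal of skeletal muscle markers, with 9 of 10 genes measured, was 122766 on J 1c against 251808 to 400582 on the others. Acta1, among the brightest probe sets, made up 32990 of it on J 1c and 87672 to 207533 on the others, so the sum includes the compression. After normalisation Acta1 was at 16.60 on J 1c, against 16.31 to 16.56 on the others. The median difference of these markers for J 1c minus NJ 1d was then 0.13. Their part in the low myosins was not tested.

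**Figure D4:**
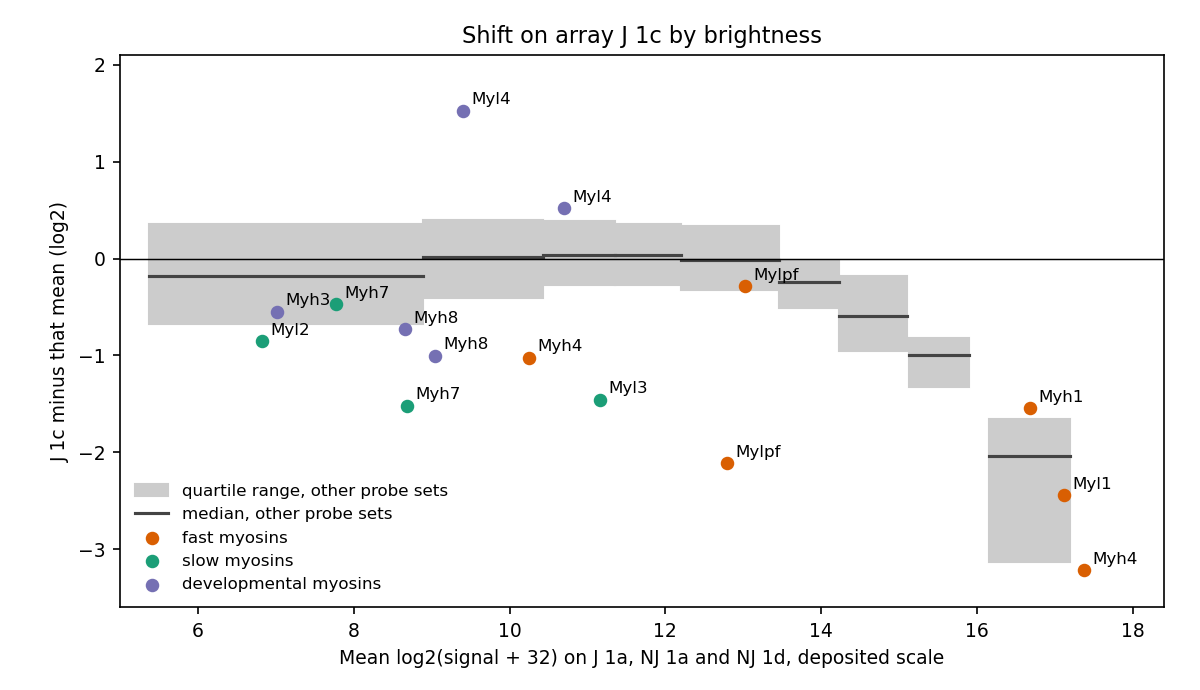
Shift of J 1c against the mean of the other 3 arrays (vertical axis, log2(signal + 32), deposited scale) by that mean (horizontal axis): points are the 15 myosin probe sets, and grey boxes and dark lines the quartiles and median of all other probe sets in 9 brightness ranges. Both Myl4 points lie above the boxes, while Myl3, Mylpf 92881_at at -2.11 and 6 others lie below them.

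No gene of the lists around myosin passed limma adjusted over all probe sets, where 0% did. Each gene of these lists was read at its brightest tested probe set. Higher in J there at an unadjusted p under 0.05 were Ankrd1 (limma, unadjusted p = 0.046, adjusted p = 0.999), Postn (limma, unadjusted p = 0.0019, adjusted p = 0.999) and Vwf, an endothelial marker (limma, unadjusted p = 0.028, adjusted p = 0.999). Over all 6774 genes tested, 79 were higher and 57 lower at that level. Kdr, another endothelial marker, went the other way from Vwf, by -1.40 ± 0.96 with overlapping groups. Of 13 other striated and nonmuscle myosins, 8 were tested, 5 of them higher in J and 3 lower, with a median of 0.20. Myl7, the atrial regulatory light chain that partners Myl4 in the atrium, had 327 and 68.8 for J, and 581 and 135.5 for NJ and differed by -0.86 ± 0.91. Myl6b, an essential light chain of slow and nonmuscle myosin, differed by 0.42 ± 0.52. Myh2, the IIa heavy chain, had signals of 32.9 to 85.5 and was too dim to test. Of myosin kinases, chaperones and turnover genes 4 were tested, 3 higher and 1 lower (median 0.26), with Hsp90aa1, a chaperone used in myosin folding, at 0.56 ± 0.49. Of thick filament and M band genes 4 were tested, 2 higher and 2 lower (median -0.11), with Myom1, an M band protein, at -0.31 ± 0.37.

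Fast genes of the thin filament and calcium handling had 2 members higher and 7 lower among 9 tested, with a median of -0.17 after normalisation and -0.79 on the deposited scale. Tpm1, a tropomyosin, differed by -1.11 ± 0.53 (limma, unadjusted p = 0.064, adjusted p = 0.999). Both its J values lay below both its NJ values. The share of all probe sets with this order was not counted, and 13.6% had the opposite order. Actn3, the Z disc actinin of fast fibres, differed by -1.18 ± 0.69 with overlapping groups. With the number-format term 1 of them passed, Tnnc2, the troponin C of fast fibres, lower in J (limma, adjusted p = 0.017). It was named after its value was seen; its difference was -0.08 within the 1a pair and -4.28 for J 1c minus NJ 1d. Their slow counterparts had 5 higher and 2 lower among 7 (median 0.16), with Csrp3, a Z disc protein, at 1.16 ± 0.99. Of embryonic and cardiac sarcomere genes 6 were tested, 3 higher and 3 lower (median -0.07). In this list Ankrd1, a stress-responsive ankyrin repeat protein, had 1351 and 3018 for J, and 195 and 1298 for NJ. Actc1, the cardiac actin also made in developing muscle, differed by -0.57 ± 0.38, opposite in sign to Myl4.

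Values of other gene groups are given beside those of Myl4, and their differences did not pass the adjusted test. Myog, the myogenic factor myogenin, had signals of 509 and 856 for J, and 379 and 214 for NJ (1.02 ± 0.71), and Myod1 differed by 0.36 ± 0.43. Postn, a matrix protein of connective tissue, had 1311 and 700 for J, and 43.3 and 75.2 for NJ. Of 7 connective tissue markers 5 were higher and 2 lower in J, and their summed signal was 109179 and 43236 for J, and 60418 and 51846 for NJ. That sum is on the deposited scale. After normalisation their median difference was 0.57 within the 1a pair and 0.27 for J 1c minus NJ 1d. All 6 smooth muscle markers were higher in the mean over both J arrays, with sums of 12096 and 9211 against 9780 and 7871. Of all 6774 genes tested, 3316 were higher. Within the 1a pair Acta2 (-0.04) and Myh11 (-0.68) were lower in J, and Des (-0.14) was lower for J 1c minus NJ 1d. Des is also counted among the skeletal muscle markers. Endothelial markers had 2 higher and 2 lower of 4 tested, immune markers 1 and 3, Schwann cell markers 0 and 4, and blood markers 2 and 0 of 2. None of these lists had a gene at 0, and their part in the difference of Myl4 was not tested.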

How the data were processed

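Total RNA of mouse skeletal muscle was measured on 4 arrays, grouped as J and NJ from their titles. The deposited table gives a linear intensity for each probe set on each array. From its values, the authors scaled each array to a common level (means after trimming 2% at each end of 800.5 to 800.6); the software is not given in the sources used here. Of 12488 probe sets, 66 controls were left out after normalisation. Genes were named from the platform's gene table, where 10833 probe sets had 1 symbol, 396 several and 1193 no entry.

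Intensities were taken as log2(intensity + 32), quantile normalised, filtered at the 25th percentile of the mean and fitted with limma 3.58.1 in R 4.3.3 (eBayes, variance trend on intensity, residual degrees of freedom 2). The members, gene lists, number-format term and alternatives were chosen with earlier results of these data known. All member probe sets are given, and at most 2 genes of each other list by smallest unadjusted p at the brightest tested probe set. The exceptions are genes given for a level (Acta1, Myh2), genes whose probe sets or pairs differed in direction (Atp2a1, Myh11, Des) and Tnnc2, named for its call with the number-format term. The scripts were tested on simulated data. The number of arrays limits the precision. Summaries and figures were made in Python 3.11.15 with matplotlib 3.10.9. Promoter windows came from RefSeq, with 12 windows for all 10 genes.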

Additional observations from a re-analysis of the deposited data

How the results depend on the processing

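The replicate labels gave no pairing, since J and NJ share only 1 of them, 1a. The number-format term acts as a block, setting J 1a beside NJ 1a and J 1c beside NJ 1d. No alternative called a myosin probe set. Over all probe sets limma called 8 with the number-format term against 0 without it (where 199 had an unadjusted p under 0.05), and 0 to 4 with each array left out, the 4 being without J 1a. The fast median of -0.34 became -0.72 with median centring, and the developmental median of 0.73 became -0.0545 with no filter because Myh3 entered, as the slow median of -0.54 became 0.0534 because Myl2 entered. With each array left out the medians ran from -0.50 to -0.14 (fast), -1.34 to 0.25 (slow) and 0.22 to 1.23 (developmental), and the slow median was 0.06 with the filter at the median, which left Myl3 alone.

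Myh1 reversed without normalisation between arrays (-0.70) and with median centring (-0.76), and Myl3 with median centring (-0.0128). With each array left out, signs reversed for Myh1 (-0.42 to 0.39), Myl3 (-1.13 to 1.22), Myl1 (-0.60 to 0.0217), Myh4 161545_r_at (-0.65 to 1.16), Mylpf 162101_f_at (-0.66 to 0.0685) and 92881_at (-1.96 to 0.73), Myh7 98616_f_at (-2.38 to 0.0647) and 161547_f_at (-0.44 to 0.078), and Myh8 160243_r_at (-0.68 to 0.54) and 162374_r_at (-0.52 to 0.15). Both Myl4 probe sets and Myh4 98488_at kept their sign under every alternative run. The causes were not tested. Dim probe sets limit what can be said of Myl2, Myh3 and Myh2.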
